A study of Rattus norvegicus with 44 samples.

Results

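Rats differ in how strongly the immediate early genes of the dentate gyrus (DG) are expressed when tissue is taken, and the older rats of this series were ordered by that expression. For each of the 34 older rats a score was computed as the mean log2(value + 1) of 6 immediate early genes (Fos, Arc, Egr1, Npas4, Junb and Fosb), and the 11 rats with the highest scores (high set) were set beside the 11 with the lowest (low set). The rats were thus chosen by the measured values of these 6 genes. The sets hold 22 of the 44 rats sequenced, and 12 older rats lie between them. The genes described are those known to follow neuronal activity, without the 6 score genes. Both sets come from a readout of the same libraries, so differences in gene values between them are descriptions and carry no test. Tests were made on what the score did not use, which is gene values in the 10 young rats, gene values and scores between the treatment groups, and the treatment of the rats in each set.

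All rats were male F344. The older rats began treatment at 12 months and were about 18 months old at tissue collection. They were given vehicle (AV, n = 12), the BCL-2 family inhibitor ABT-263 at 12 mg/kg (AA, n = 11), or dasatinib at 1.2 mg/kg with quercetin at 12 mg/kg (ADQ, n = 11), by gavage for 5 days in each of 8 cycles over 6 months. Per the methods, these cycles were followed by behavioral tests in a water maze and by inhibitory avoidance with a foot shock. A final round of treatment came after the tests, and tissue was taken 2 weeks later. The young rats (YNG, n = 10) were 6 months old and received vehicle, and young rats took the same tests. The DG was isolated on ice after isoflurane anesthesia and decapitation, with no stimulation of the tissue named in the methods, and each rat gave 1 poly(A)-selected library. The labels give the older rats an age of 12 months.

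Immediate early genes are transcribed within minutes of synaptic input, without new protein synthesis, when calcium entry and ERK signaling activate the transcription factors CREB and SRF at their promoters. Most of their products are transcription factors, feedback inhibitors of ERK signaling or proteins of the synapse. A later wave of genes, among them Bdnf and several neuropeptides, follows more slowly. In the DG only a small share of granule cells expresses Arc or Fos at a given time, and stress, handling, exploration and anesthesia are all known to alter these genes.

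The estimated depth was 13925151 to 22160427 reads per rat in the high set, 12850143 to 22312933 in the low set and 10166691 to 24329811 in YNG. Values are normalized reads summed over the rows of a gene. Granule cell markers such as Prox1 and C1ql2 were present in every set, but the dissections differed. The summed value of 9 markers of CA1 pyramidal cells, the neurons of the neighboring field, ran from 6683 to 52441 (median 14216) in the high set, from 5478 to 14615 (median 8566) in the low set and from 5783 to 23465 (median 13212) in YNG. The summed value of 12 granule cell markers ran from 4957 to 16870 (median 14590) in the high set and from 14252 to 19199 (median 15721) in the low set. Rat 4107, an AA rat of the high set, stood apart with the highest CA1 sum and the lowest granule cell sum of all rats. Without it the high set ran from 6683 to 32311 for CA1 and from 12460 to 16870 for granule cell markers. Of the CA1 markers 6 of 9 were at least 0.5 higher on the log2 scale in the high set, where 2.52% of all genes were. Of the 12 granule cell markers none was as much higher and 1 was as much lower, where 1.85% of all genes were. None of the 12 had a positive difference, where 50.9% of all genes had one, and their median was -0.34. In bulk tissue, fewer cells of a type and less RNA per cell cannot be told apart. The part of CA1 tissue in the differences below was not tested, and values with the CA1 marker level as a term are given for some of the genes named.

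**Figure D1:**
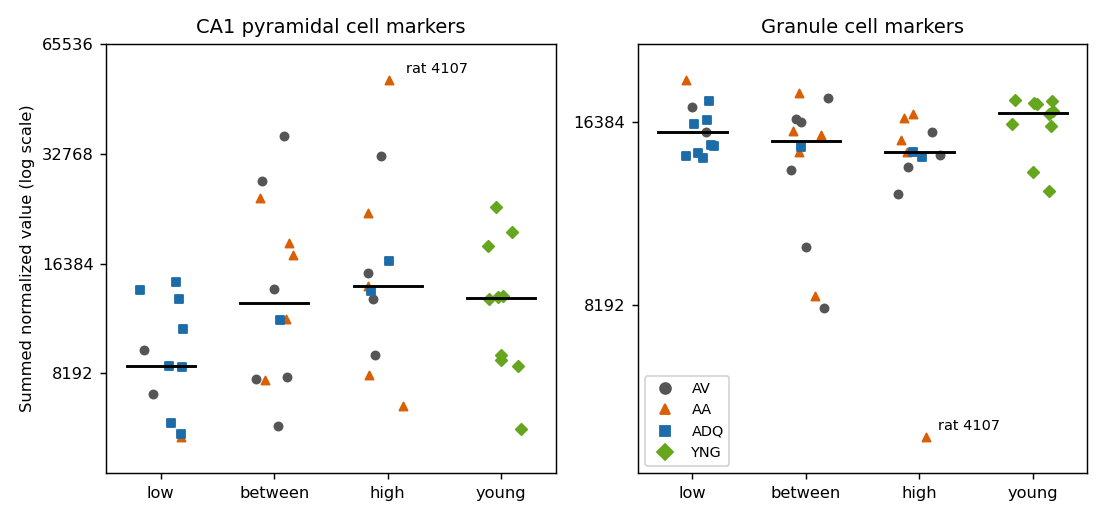
Summed normalized values of 9 CA1 pyramidal cell markers (left) and 12 granule cell markers (right) in each rat, by set, on a log scale with the median as a line and the symbol giving the group. The high set reaches 52441 for CA1 markers and the low set 14615, and rat 4107 lies lowest for granule cell markers at 4957.

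Among the score genes, which chose the rats and are given as a description, Fos had 135 to 247 (median 194) in the high set and 54.1 to 106 (median 71.4) in the low set. The cytoskeletal gene Arc, whose product drives removal of AMPA receptors from synapses, had 1179 to 4261 (median 2140) and 608 to 1238 (median 843). Npas4, a factor that responds to depolarization, had 41.5 to 181 (median 100.2) and 9.78 to 47.2 (median 36.7). Egr1 had medians of 1313 and 822, and Junb of 783 and 450.4. Fosb differed least, with 233 to 414 (median 356) in the high set and 242 to 391 (median 291) in the low set. Fos and Junb therefore separated the sets without overlap, whereas Fosb overlapped over most of its range. The score ran from 8.63 to 9.39 in the high set and from 7.56 to 8.10 in the low set. The rats just inside and just outside the cuts had scores of 8.63 and 8.53 at the upper cut and of 8.10 and 8.15 at the lower one. The sets are therefore ends of a continuous range. The 10 YNG rats had scores of 7.77 to 8.41, with an SD of 0.19 against 0.46 in the older rats.

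**Figure D2:**
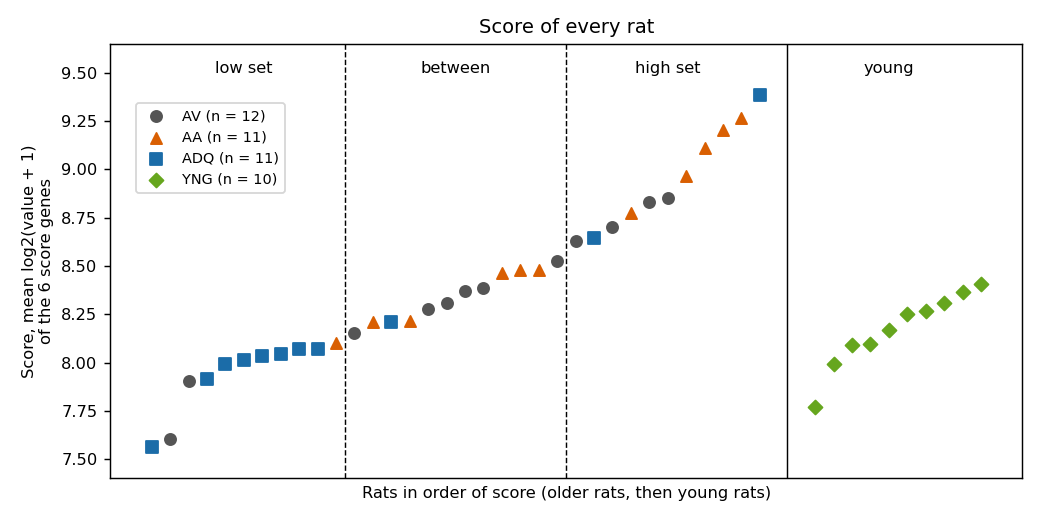
Score of every rat (mean log2(value + 1) of the 6 score genes, vertical axis) in rank order, with older rats first, dashed lines at the limits of the low and high sets, and YNG rats on the right. Scores run from 7.56 to 9.39 in older rats, and 8 of the 11 rats in the low set are ADQ.

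The treatment groups were spread unequally over the sets. The high set held 5 AA, 4 AV and 2 ADQ rats, and the low set held 1 AA, 2 AV and 8 ADQ rats. The share of ADQ rats differed by -54.5 percentage points between the high and the low set (Fisher's exact test, two-sided, p = 0.030, adjusted p = 0.120 over 4 tests). The score itself was 8.66 ± 0.42 (SD) in AA, 8.38 ± 0.37 in AV and 8.18 ± 0.47 in ADQ. AA exceeded ADQ by 0.49 (two-sided permutation test, p = 0.0213, adjusted p = 0.085 over 4 comparisons), AA minus AV was 0.28 (adjusted p = 0.156), ADQ minus AV was -0.20 (adjusted p = 0.268) and older rats minus YNG was 0.23 (adjusted p = 0.156). None of these passed after adjustment with all rats. Rat 4004, an ADQ rat, had the highest score of all rats (9.39), so that leaving it out had to widen AA minus ADQ. Without it that difference was 0.61 (permutation test, adjusted p = 0.0041), and nothing is read from this p. The labels name no batch, but the libraries differed with rat number. The transcript AABR07000398.1 took 0.422% to 1.596% of all values in the 22 rats numbered up to 4011 and V1 to V6 (lower range), and 1.71% to 11.1% in the 22 rats numbered 4031 and above and the other young rats (higher range), and its part in the results was not tested. The split by number is a choice of the re-analysis. In the lower range ADQ minus AV was 0.13 (exact permutation test, 5 and 6 rats, adjusted p = 0.714) and AA minus ADQ was 0.24 (exact permutation test, adjusted p = 0.593). In the higher range ADQ minus AV was -0.49 and AA minus ADQ was 0.69, each with 6 rats against 6 (exact permutation test, p = 0.0022, the smallest it allows, adjusted p = 0.0043), and all 6 ADQ rats belonged to the low set. Whether the ranges differed was not tested. In the higher range the AV rats were numbered 4566 to 4572 and the AA and ADQ rats 4031 to 4110, so that rat number and vehicle cannot be told apart.

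Of 93 measured members of 3 lists of activity-regulated genes, 16 (17.2%) were at least 0.5 higher on the log2 scale in the high set (a fold of 1.41) and none was as much lower. Of all 15592 genes tested, 2.52% were as much higher and 1.85% as much lower. The score that chose the rats used the same contrast, so nothing is read from these shares. For 15 of the 16 members the mean of the 12 rats between the sets lay between the means of the sets. All 16 were higher in the high set within each range of rat numbers. In the higher range this set 3 AA rats and 1 AV rat against 6 ADQ rats and 1 AA rat. The 16 were picked for their difference between sets of these same rats, so nothing is read from these 2 counts either. With the CA1 marker level as a term 13 stayed at least 0.5 higher (1.76% of all genes were), and Tac1 (0.12), Nr4a2 (0.38) and Dusp6 (0.45) did not. With that term 2 members, Fosl2 (-0.51) and Spred1 (-0.56), an inhibitor of ERK signaling, were at least 0.5 lower (2.34% of all genes were). Of the 16, 14 stayed at least 0.5 higher without rat 4107 and 15 with treatment as a term.

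The inducible transcription factors held 10 of the 16 members, among 30 measured. Their median difference was 0.34, against 0.0045 over all genes. Nr4a1, an orphan nuclear receptor induced by calcium and cAMP, had 534 to 1710 (median 832) in the high set, 327 to 1016 (median 514) in the rats between, 189 to 427.5 (median 298) in the low set and 287 to 865 (median 473) in YNG. Every rat of the high set lay above every rat of the low set, and the difference was 1.50 ± 0.19 (SE). It was 1.39 without rat 4107, which had the highest value, and 1.15 with the CA1 term. Nr4a1 and Dusp1, below, were the 2 genes (0.0128%) of all 15592 whose sets did not overlap. Egr2, a zinc finger factor of the Egr1 family, had 19.2 to 104.6 (median 51.2) in the high set and 4.84 to 27.3 (median 8.34) in the low set. Of the 11 high rats 8 exceeded the highest low rat, and the difference of 2.03 ± 0.34 was the largest of the list.

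Sik1, a kinase that restrains CREB coactivators and was listed here for its induction with these factors, had 114 to 323 (median 163.5) and 60.1 to 133 (median 79.6), a difference of 0.97 ± 0.16. Ier2, a small nuclear protein of the first wave, had 79.1 to 211 (median 118) and 45.9 to 92.4 (median 66.4), a difference of 0.79 ± 0.16. The Krüppel-like factors Klf4 and Klf2 differed by 0.79 ± 0.17 and 0.85 ± 0.24. For these 4 genes some rats of the 2 sets overlapped. Egr4 differed by 0.72, Nr4a2 by 0.58 and the small Maf factor Maff by 0.61. Atf3, a stress-inducible factor with a mean of only 10.1, had 6.55 to 27.1 (median 17.6) and 1.61 to 31.9 (median 4.68), a difference of 1.18 ± 0.37. Its highest value came from a low rat, the AV rat 3999, which was also the highest low rat for Maff, Ccn1 and Apold1. Without ADQ rats, which left 9 high and 3 low rats, the difference was 0.54 for Atf3 and -0.03 for Maff.

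The list was not uniformly higher. Jun, the partner of Fos in the AP-1 dimer, had 2178 to 4381 (median 3750) in the high set and 2529 to 3914 (median 3528) in the low set, a difference of 0.03 ± 0.11. Egr3 differed by 0.05 and Nr4a3 by 0.07, although both belong to families with members that were higher. Fosl2, another Fos relative, differed by -0.42 ± 0.19, with 30.9 to 85.8 (median 50.1) in the high set and 40.8 to 104 (median 76.8) in the low set. These 4 genes were chosen after their values were seen, to show members of the same families that did not follow the score.

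**Figure D3:**
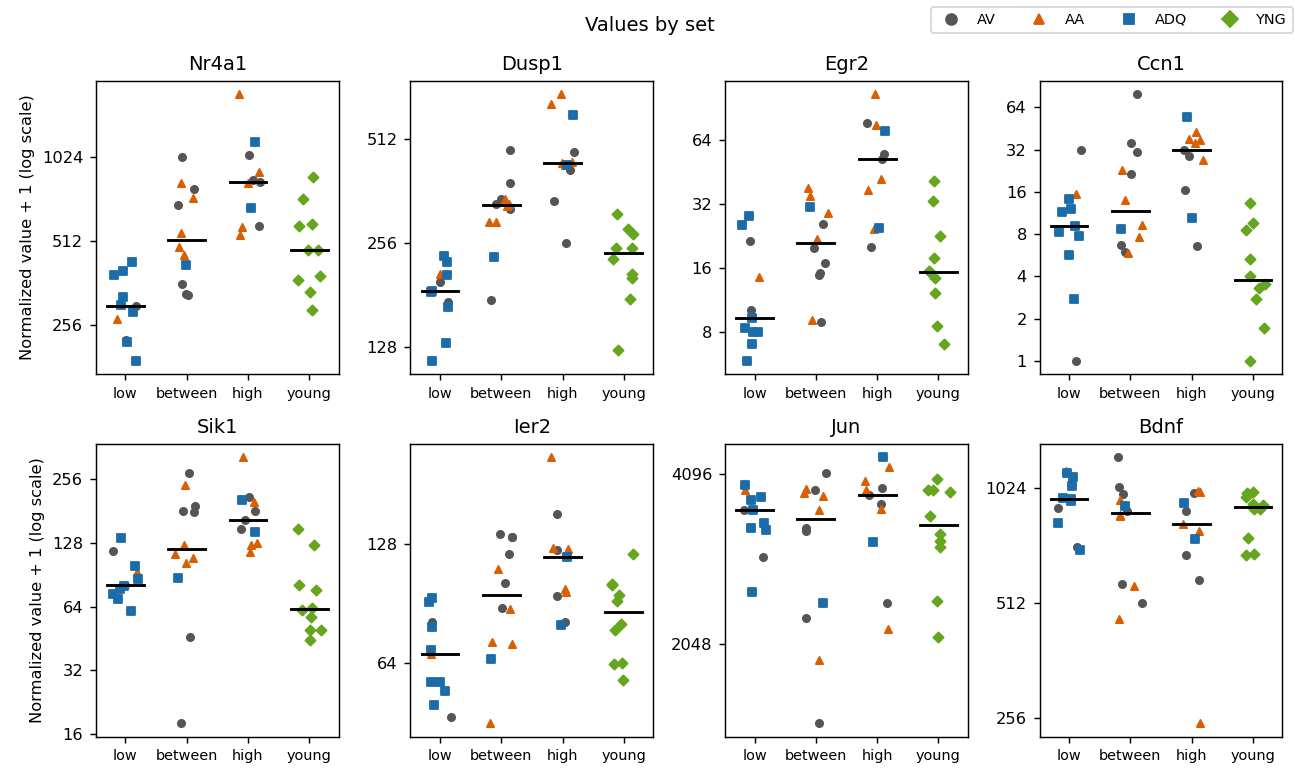
Normalized value + 1 of 8 genes in every rat on log scales, by set, with the median as a line and symbols for AV, AA, ADQ and YNG. Nr4a1 and Dusp1 do not overlap between the low and high sets, Egr2, Ccn1, Sik1 and Ier2 overlap in part, and Jun and Bdnf overlap over most of their range.

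Among 33 inducible signaling regulators the median difference was 0.27, and 5 members were at least 0.5 higher. Dusp1, a phosphatase that switches off MAP kinases, had 255 to 690 (median 437) in the high set, 173 to 475 (median 329) in the rats between and 116 to 234 (median 185) in the low set, a difference of 1.32 ± 0.16. In YNG it had 124 to 311 (median 238). The sets did not overlap, and the difference was 1.25 with the CA1 term. The ERK phosphatases Dusp5 and Dusp6 differed by 0.94 ± 0.19 and 0.67 ± 0.16, and by 0.65 and 0.45 with the CA1 term. The pseudokinase Trib1 differed by 0.62 ± 0.14. Ccn1, a secreted matrix protein, had 5.63 to 53.8 (median 30.9) in the high set and 0 to 30.7 (median 8.07) in the low set, where 1 rat was listed at 0, a difference of 1.69 ± 0.49 at a low level of expression. Plk3, a polo-like kinase, came next at 0.47 ± 0.12. Ptgs2, the inducible cyclooxygenase of neurons, which was chosen after its values were seen, lay in the other direction at -0.38 ± 0.15. It had 339 to 1068 (median 932) in the high set and 873 to 1285 (median 1126) in the low set. Rat 4107 had the lowest value, and the difference was -0.24 without that rat and -0.15 with the CA1 term.

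The promoters of 3 genes are shown. Nr4a1 and Dusp1 were chosen because their values did not overlap between the sets, and Egr2 because it had the largest difference of the 16 members. Sequences are RefSeq windows from 250 bases before to 50 bases after the annotated start on build GRCr8, which is not the build of the value table. Capitals mark the cAMP response element TGACGTCA, its half-sites TGACG and CGTCA (each other's reverse complement, both contained in the full element) and the CArG box bound by SRF. Both strands were searched.
Nr4a1 promoter (chr7:134259888-134260187, plus strand): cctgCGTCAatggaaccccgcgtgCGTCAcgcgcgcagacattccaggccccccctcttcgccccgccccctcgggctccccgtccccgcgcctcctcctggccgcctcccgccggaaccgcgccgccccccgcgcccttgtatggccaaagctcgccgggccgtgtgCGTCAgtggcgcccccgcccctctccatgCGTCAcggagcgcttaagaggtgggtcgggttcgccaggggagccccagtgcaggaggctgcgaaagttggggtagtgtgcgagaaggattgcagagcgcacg
Dusp1 promoter (chr10:17184603-17184902, plus strand): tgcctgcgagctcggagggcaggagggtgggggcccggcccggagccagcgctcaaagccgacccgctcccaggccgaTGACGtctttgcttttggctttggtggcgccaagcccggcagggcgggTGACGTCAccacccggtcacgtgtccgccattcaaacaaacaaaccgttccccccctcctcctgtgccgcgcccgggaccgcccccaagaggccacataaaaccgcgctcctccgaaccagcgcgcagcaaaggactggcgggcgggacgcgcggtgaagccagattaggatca
Egr2 promoter (chr20:21054392-21054691, minus strand): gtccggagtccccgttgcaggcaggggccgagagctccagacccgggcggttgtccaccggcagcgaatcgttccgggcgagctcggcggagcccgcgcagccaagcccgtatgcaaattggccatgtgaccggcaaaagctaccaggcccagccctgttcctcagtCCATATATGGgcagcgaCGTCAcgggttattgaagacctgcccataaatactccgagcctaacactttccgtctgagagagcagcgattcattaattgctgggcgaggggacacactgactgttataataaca
Nr4a1 had 4 half-sites in its window. Dusp1 had 1 full element and, counting the pair inside it, 3 half-sites. Egr2 had 1 half-site and 1 CArG box. Of the 16 members that were at least 0.5 higher, 13 matched a window by symbol, and 11 of these (84.6%) held a half-site, against 28 of 58 (48.3%) of the other activity list members and 21.96% of all 27457 windows. The full element was in 3 of the 13 (Dusp1, Ier2 and Maff), in 8 of the 58 and in 1.91% of all windows. The CArG box was in 2 of the 13 (Egr2 and Dusp5), in 3 of the 58 and in 1.64% of all windows. A match is a run of letters and not a measured site.

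Of 30 synaptic and secreted activity genes measured, 1 was at least 0.5 higher, and the median difference was 0.03. That gene was the tachykinin precursor Tac1, with 10.0 to 69.0 (median 18.2) in the high set and 7.26 to 22.4 (median 15.3) in the low set. Its difference of 0.54 ± 0.29 was 0.38 without rat 4107 and 0.12 with the CA1 term. The neuropeptides Npy and Sst, which mark GABA neurons, differed by 0.49 ± 0.20 and 0.45 ± 0.12, and 11 of 12 GABA neuron markers were on the higher side in the high set, with a median of 0.28. Their part in the peptide differences was not tested. Vgf, a secretory granule protein, differed by 0.39 ± 0.15. The proprotein convertase Pcsk1 was on the lower side, with 140 to 303 (median 180.5) in the high set and 213 to 286 (median 261) in the low set, and 10 of 11 high rats lay below the low median. Its difference of -0.42 ± 0.10 was -0.42 with the CA1 term too.

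The neurotrophin Bdnf, chosen after its values were seen, had 246 to 1006 (median 823.5) in the high set and 703 to 1135 (median 954.5) in the low set, a difference of -0.32 ± 0.19. Rat 4107 gave the lowest value, and without it the difference was -0.16. With the CA1 term it was -0.05. Homer1, Nptx2 and Inhba, a scaffold, a pentraxin and an activin subunit that synaptic activity induces, differed by -0.12, 0.06 and -0.27. None of these 4 genes was 0.5 higher or lower, with or without rat 4107.

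**Figure D4:**
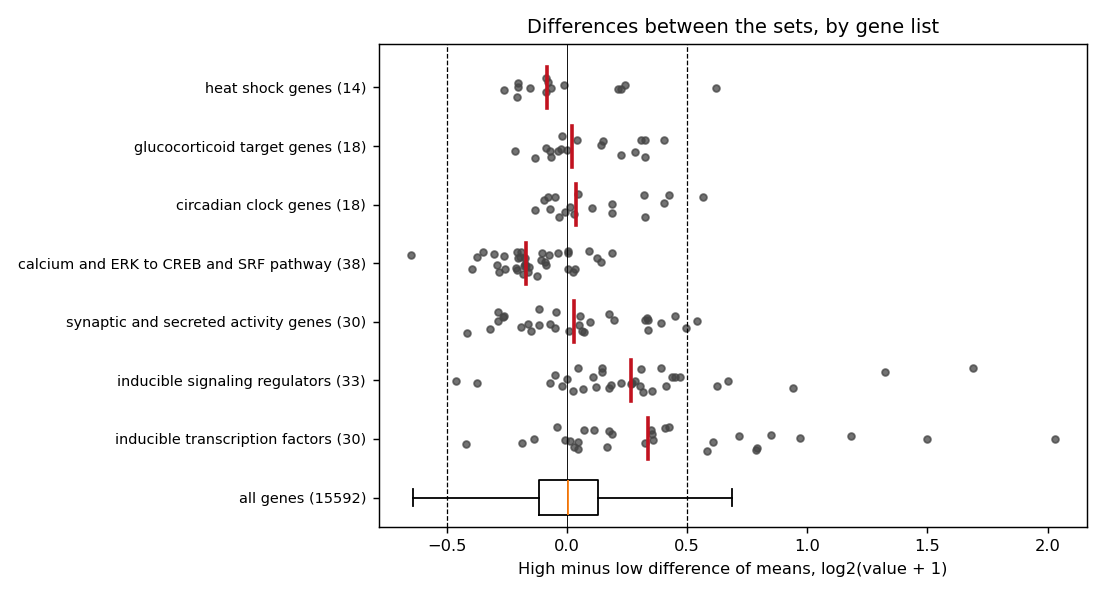
High minus low difference of mean log2(value + 1) for each member of 7 gene lists, with list medians as red lines and, at the bottom, all 15592 genes as a box (quartiles) with whiskers at the 1st and 99th percentiles. Differences of over 1 occur in the inducible transcription factors and signaling regulators and in no other list.

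The machinery that leads from calcium and ERK to CREB and SRF was described from a list of 38 measured genes. None was at least 0.5 higher and 1 was as much lower, and the median was -0.17. Creb1, the factor itself, had 10.8 to 50.0 (median 26.8) in the high set and 25.6 to 61.7 (median 42.3) in the low set, a difference of -0.65 ± 0.22. It was -0.13 when the row with the highest mean stood for each gene in place of the sum of its rows, a setting that also exchanged 1 rat of each set. The calmodulin-stimulated cyclase Adcy1 and the L-type calcium channel Cacna1c, both plentiful in granule cells, differed by -0.40 ± 0.14 and -0.37 ± 0.11. The median of 12 granule cell markers was lower too, by -0.34, and its part in these values was not tested.

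Genes that follow the hour of the day or stress were described beside them. Of 18 circadian clock genes 1 was at least 0.5 higher, Npas2 at 0.57 ± 0.21, which was 0.20 with the CA1 term. The clock output Dbp had 1328 to 1951 (median 1594) in the high set and 974 to 1656 (median 1190) in the low set, a difference of 0.40 ± 0.08, and the repressor Ciart differed by 0.42 ± 0.14, but by 0.098 within the lower range of rat numbers and 0.16 without ADQ rats. The list's median was 0.04. Of 18 glucocorticoid targets none was past 0.5 in either direction. Nfkbia differed by 0.40 ± 0.11, but by 0.080 without ADQ rats, the anti-inflammatory Tsc22d3 by 0.33 ± 0.09 and Per1, which is also a clock gene, by 0.33 ± 0.07, with a list median of 0.02. Of 14 heat shock genes the chaperone Hspa8 was at least 0.5 higher (0.62 ± 0.22, and 0.20 within the lower range of rat numbers), Hspe1 differed by -0.26 and Bag3 by 0.24, with a median of -0.08. The Hspa8 entry had a mean value of only 53.9, against 11251 for Hsp90aa1 of the same list. The hour of collection is not in the labels.

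Outside these lists, the largest positive differences were mostly in genes that moved with the CA1 markers. Nts, the neurotensin precursor, had 29.4 to 730 (median 203.6) in the high set and 2.08 to 439 (median 38.5) in the low set, a difference of 2.10 ± 0.83 that was 0.37 with the CA1 term. Pou3f1, a CA1 marker itself, differed by 1.74, and by 0.36 with the term. Lyzl4, Ankrd63, Adgrl2 and AABR07049886.2, a gene with no further name, differed by 1.67, 1.58, 1.48 and 2.002, and by 0.32, 0.49, 0.14 and 0.25 with the term. Without ADQ rats Lyzl4 differed by 3.32. Cd3e, which encodes a T cell receptor chain, differed by 1.84, and by 0.51 with the term. Of the 10 genes, 3 stayed at least 0.5 higher with the term. The one with the smallest standard error was Apold1, an early response gene of endothelial cells, with 93.7 to 554 (median 156) in the high set and 24.2 to 299 (median 50.01) in the low set. Its difference was 1.63 ± 0.38, and 1.58 with the CA1 term, but 0.73 without ADQ rats. The unnamed AABR07015078.2 differed by 2.19 ± 0.96.

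The largest negative differences were in genes with values near 0 in some rats. AABR07030162.1 differed by -2.81 ± 1.37 but by 0.56 within the higher range of rat numbers. The ribosomal protein gene Rpl21 (-2.43 ± 0.90), LOC100911713 (-2.30 ± 0.92), Zmiz2 (-1.60 ± 0.93), 5S_rRNA (-1.48 ± 0.64) and AABR07020815.1 (-1.39 ± 0.94) followed. Rpl21 and 5S_rRNA have near-identical copies in the genome, between which the authors' counting could divide reads, so that these values are uncertain.

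The YNG rats, which the rule did not use, were the test of whether the same genes move with the score. A limma fit in the 10 YNG rats gave each gene a slope, as log2 per unit of score, over scores that span less than 1 unit. No gene of 15592 passed an adjusted p of 0.05 (0.00% called), and the smallest adjusted p was 0.165, for Nts and the CA1 marker Wfs1. At an unadjusted p of 0.05, 295 genes (1.89%) had a positive and 137 (0.879%) a negative slope. Of the 93 activity list members, 6 (6.45%) had a positive slope at that threshold and 1 (1.08%) a negative one. All 16 members that were higher in the older high set had positive slopes, as did 51.5% of all genes, and 4 of the 16 passed the unadjusted p. Nr4a1 had a slope of 2.16 ± 0.48 (SE; unadjusted p = 0.00067, adjusted p = 0.806), Egr2 of 3.38 ± 0.89 (p = 0.0023), Dusp5 of 1.91 ± 0.67 (p = 0.0143) and Egr4 of 1.11 ± 0.44 (p = 0.027). The adjusted p of the last 3 was 0.9998 each. The other members with a positive slope at this threshold were Gpr3, a receptor that raises cAMP (2.12 ± 0.50, p = 0.0011), and the polo-like kinase Plk2 (1.07 ± 0.44, p = 0.033). Fosl2 had a negative slope of -1.63 ± 0.53 (p = 0.0093), in the direction of its difference in older rats. Dusp1, which separated the older sets completely, had a slope of 0.36 ± 0.62 (p = 0.569), and Sik1 (0.60), Atf3 (0.24) and Ccn1 (1.50) did not pass either. The slopes of Nr4a1, Egr2 and Gpr3 passed the unadjusted p without any 1 rat. That of Dusp5 did not pass without V10 (p = 0.239), that of Fosl2 without V10 (p = 0.161), that of Plk2 without V2 (p = 0.065) and that of Egr4 without V1, V3 or V10 (p = 0.052, 0.110 and 0.069).

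CA1 markers moved with the score in YNG as well. Of these 6 of 9 had a positive slope at the unadjusted p, and the 5 smallest p with a positive slope belonged to Nts (12.1 ± 1.8, unadjusted p = 1.8e-05), Wfs1 (4.38 ± 0.66, p = 2.1e-05), Pou3f1 (6.88 ± 1.15, p = 5.4e-05), AABR07044001.4 (3.71 ± 0.63, p = 6.5e-05) and Cd3e (7.04 ± 1.31, p = 0.00015). The smallest p with a negative slope belonged to Mtf1 (-2.56 ± 0.57, p = 0.00067), Map3k7 (-2.55 ± 0.65, p = 0.0020) and Cdh12 (-1.23 ± 0.34, p = 0.0031). With the CA1 marker level as a term, Nr4a1 had a slope of 0.73 (p = 0.235), Egr2 of 2.75 (p = 0.081), Egr4 of 1.41 (p = 0.075) and Dusp5 of -0.27 (p = 0.721). None of these 4 passed the unadjusted p with the term. Other members did, so that 8 of the 93 activity list members (8.60%) had a positive slope at that threshold with the term. A further 2 members (2.15%) had a negative one, as did 282 of all 15592 genes. The share of all genes with a positive slope in the fit with the term is not given here, so nothing is read from the 8.60%. No member passed an adjusted p of 0.05 with the term. Rat V10 had the lowest score, the lowest CA1 sum and Nts listed at 0. Without it the counts at the unadjusted p were 135 positive and 69 negative, without rat V11 906 and 694, and without rat V2 the negative count was 226.

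**Figure D5:**
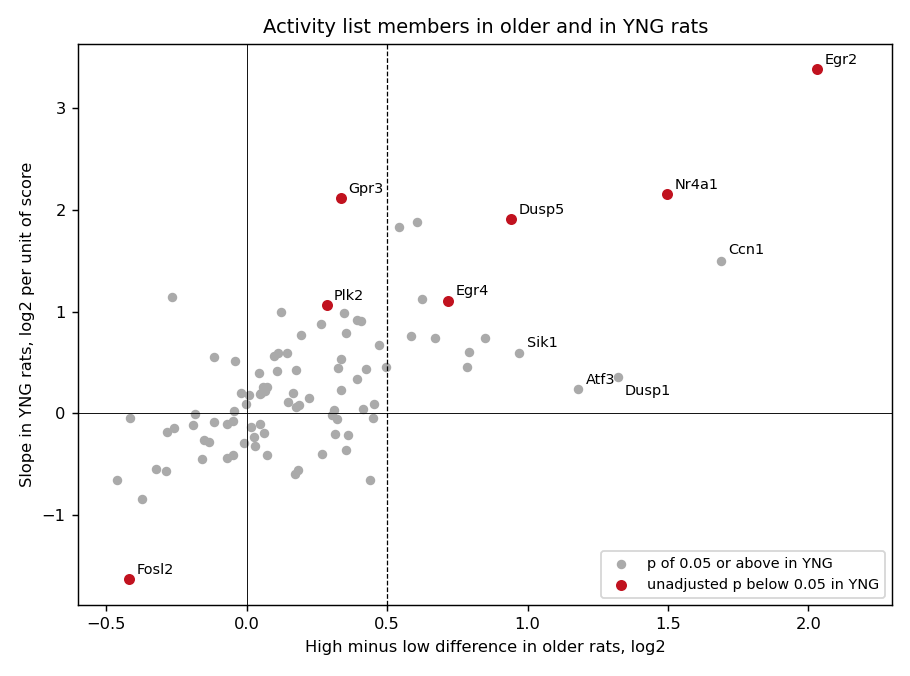
High minus low difference in older rats (horizontal axis, log2) against the slope on the score in the 10 YNG rats (vertical axis, log2 per unit of score) for 93 activity list members, with unadjusted p below 0.05 in YNG in red. All 16 members right of the dashed line at 0.5 lie above a slope of 0, with Egr2 at 3.38 and Dusp1 at 0.36.

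Treatment played no part in the rule, so the activity genes could be compared between groups in a limma fit of all 44 rats, although the low set is largely made of ADQ rats and shares them with these contrasts. No member passed an adjusted p of 0.05 in any contrast between older groups. At an unadjusted p of 0.05, 10 of 93 members (10.8%) were lower and 2 (2.15%) higher in ADQ than in AV, where 5.90% of all genes were lower and 3.42% higher. The 3 smallest p belonged to Klf4, which had 34.7 to 201 (median 115) in AV and 44.5 to 118 (median 61.5) in ADQ (-0.74 ± 0.20 SE, unadjusted p = 0.00055, adjusted p = 0.185), Plat, the tissue plasminogen activator, with medians of 864 and 607 (-0.69 ± 0.19, p = 0.00066, adjusted p = 0.185), and Atf3, with medians of 15.8 and 6.15 (-1.09 ± 0.31, p = 0.00094, adjusted p = 0.197). In each case the groups overlapped, and the AV medians were the highest of the 4 groups. Some cell marker lists were lower in ADQ than in AV too. At that threshold 7 of 9 endothelial cell markers were lower and none higher (median -0.53). So were 7 of 12 microglia markers (median -0.30) and 5 of 5 red blood cell markers (median -0.88), with none higher. The part of these cell types in the values of the activity genes was not tested. Within the lower range of rat numbers 3 activity list members were lower and none higher. The share of all genes called in that fit is not given here, so nothing is read from this count. There Klf4 was at -0.41 (p = 0.191), Plat at -0.83 (p = 0.0119) and Atf3 at -1.27 (p = 0.0076).

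In AA against AV, 4 members (4.30%) were lower and 1 (1.08%) higher, where 3.10% of all genes were lower and 1.40% higher. These were Plat (-0.50, unadjusted p = 0.011), Maff (-0.90, p = 0.0155), Klf4 (-0.42, p = 0.039) and Pim1 (-0.40, p = 0.042), with Per1 higher (0.22, p = 0.034), each with an adjusted p of 0.999. AA and ADQ rats shared the AV rats as controls in these comparisons. Between the 2 treated groups, 10 members (10.8%) were higher and 2 (2.15%) lower in AA, where 2.13% of all genes were higher and 2.40% lower. Dusp1 had 208 to 690 (median 343) in AA and 116 to 603 (median 206) in ADQ, a difference of 0.79 ± 0.22 (unadjusted p = 0.00072, adjusted p = 0.981). Nr4a1 (0.75 ± 0.28, p = 0.0095), Egr2 (1.10 ± 0.41, p = 0.0098) and Klf2 (0.69 ± 0.24, p = 0.0070) lay in the same direction, all with that adjusted p. Within the lower range of rat numbers, 1 activity list member was higher and 1 lower, and Dusp1 differed by 0.32 (p = 0.327). No share of all genes is given for that fit, so nothing is read from these counts.

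Older rats differed from YNG in some of the same genes. Against the mean of the 3 older groups, 9 of 93 members (9.68%) passed an adjusted p of 0.05, all of them higher in older rats, where 14.9% of all genes passed in either direction. They included Ccn1, which had 0 to 12.4 (median 2.76) in YNG and medians of 24.1, 21.7 and 8.07 in AV, AA and ADQ (1.82 ± 0.44, adjusted p = 0.0088), the related Ccn2 (0.91 ± 0.20, adjusted p = 0.0048), the kinase Sgk1 (0.73 ± 0.16, adjusted p = 0.0053), Klf4 (0.68 ± 0.17, adjusted p = 0.0106), Atf3 (0.92 ± 0.27, adjusted p = 0.021) and Sik1 (0.75 ± 0.26, adjusted p = 0.041). The genes that separated the sets without overlap were not among them, with Nr4a1 at 0.08 (adjusted p = 0.830) and Dusp1 at 0.40 (adjusted p = 0.124). Of 9 endothelial cell markers 5 passed an adjusted p of 0.05 in this contrast, and the median of the 9 was 0.46. Their part in the values of the activity genes was not tested.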

How the data were processed

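RNA of the DG was measured in 44 rats, 1 library each. The authors aligned reads to the rn6 build with STAR 2.5.3a in Partek Flow and, per the methods, scaled them by the median ratio. The deposited table holds these signal values, estimated reads per row divided by a factor per library. Genes with several rows hold fractions of reads, so no count model was used. The 24694 rows were summed to 18347 gene identifiers (13985 have 1 row). The treatment of an older rat was looked up by its name in a second deposited table, of attributes.

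Values were taken as log2(value + 1), so that folds of low genes are understated, for 15598 genes with a mean of at least 5 (15592 without the score genes). Differences between the high and low sets are differences of means, with SE from the spread between rats. Slopes in YNG and group differences (YNG, AV, AA and ADQ in 1 fit of 44 rats) came from limma 3.58.1 in R 4.3.3 (empirical Bayes with a trend), which was tested on simulated data. All p are two-sided and, where adjusted, by Benjamini-Hochberg. The adjustment ran over all genes fitted in limma, over 4 comparisons for the scores and over 4 tests for the makeup of the sets. Older rats against YNG used the mean of the 3 older group means. Scores were compared by permutation of rats with 100000 resamples, or exactly within number ranges. Python 3.11.15 with scipy 1.17.1 was used.

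The rats, lists and tests were chosen with earlier results of these data known. Named genes are the score genes, the 6 largest differences of each activity list and 3 of each other list, the 10 largest positive and 6 largest negative differences of other genes with a mean of at least 20, the smallest YNG p (5 positive, 3 negative), and of activity members the 3 smallest p in AA and ADQ against AV. Of the genes under that rule, 1 is not reported here. Genes named beyond that rule were chosen after their values were seen. Of 97 distinct activity genes, 93 were in the table. The CA1 term, the fits without ADQ rats and the group fits within the lower number range were chosen after seeing the data. Markers of CA3 and mossy cells, choroid plexus, oligodendrocytes, microglia, astrocytes, endothelial cells, red blood cells and meninges were also summed, with median differences of -0.02, 0.27, 0.27, 0.10, 0.10, 0.15, 0.15 and 0.06.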

Additional observations from a re-analysis of the deposited data

Results flagged for a closer look

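The score and the named genes gave 60 sets of values in the 10 YNG rats that were tested for outliers. Of these 60, 6 had 1 rat far from the other 9 (Dixon's ratio above its critical value, which chance passes in about 1 of 20 groups), all given as log2(value + 1). Rat V10 was lowest for Fos (5.79, median of the 10 rats 6.74), for the chaperone regulator Bag3 (7.01, median 7.97) and for Nts, which was listed at 0 (median 7.15). Rat V11 was highest for Npas4 (5.92, median 5.09), rat V12 lowest for Npy (1.87, median 7.58) and rat V6 lowest for AABR07020815.1 (1.29, median 5.65). V10 and V11 are also the rats whose removal changed the YNG counts most.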

How the results depend on the processing

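Sets of 8 and 17 rats, other normalizations and filters, covariates, number ranges and removal of single rats were tried. The numbers of genes at least 0.5 higher and lower, 393 and 288, were 224 and 132 with a pseudocount of 5, 203 and 135 with a mean of at least 20, 658 and 543 with no filter, 218 and 141 with 17 rats a set, 634 and 576 within the higher number range and 761 and 541 without ADQ rats, and the lower count was 474 with treatment as a term. Without single rats they ran from 303 to 476 and from 272 to 379. Median differences of the inducible transcription factors (0.34) and signaling regulators (0.27) were 0.18 and 0.12 with 17 rats, and that of the regulators 0.19 within the lower number range and 0.18 with the CA1 term. The synaptic list (0.03) was at -0.058 with 8 rats. Without ADQ rats Maff was at -0.025 and AABR07020815.1 at 0.028, and AABR07030162.1 was at 0.56 within the higher range.

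The YNG counts of 295 and 137 were 159 and 66 without the rats V10 and V2, whose scores lie farthest from the median. The negative count was 277 with no filter and 282 with the CA1 term, where the slopes of Dusp5 (-0.27) and Adgrl2 (-1.41) changed sign. Without single rats the counts ran from 135 to 906 and from 69 to 694, and no gene passed adjustment in any of these fits. The 12 activity members called between ADQ and AV, and the 12 between AA and ADQ, were 3 and 2 within the lower range, where Dusp1 in ADQ minus AV was 0.057. The shares of all genes called in the lower range are not given here, so nothing is read from these counts. The score difference ADQ minus AV was 0.13 in the lower range and -0.49 in the higher one, and AA minus ADQ (0.49) was 0.69 there. Without single rats the latter ran from 0.42 to 0.61 with all number ranges, and it passed adjustment without rat 4004 (permutation test, adjusted p = 0.0041). Nothing is read from that p, since rat 4004 was the ADQ rat with the highest score. The cause of these changes was not tested. The 10 YNG rats, with a narrow range of scores, limit what the slopes can show, and genes with means near 5 rest on few reads. No paired analysis was possible because the labels give the groups no shared replicate numbers.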
